A study of Mus musculus with 20 samples.

Results

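The 33 genes described here take fatty acids into the muscle cell and oxidise them, and they were chosen by function as the named genes of that pathway. Each gene was measured by the probe set that the platform annotation gives it alone and that was brightest on average over the 20 arrays. Of the 33, 27 had such a probe set, among 8220 genes on the array that did. Of these 27, 25 were bright enough to test, among 5468 genes tested, since 2 stayed under the filter's signal of 200 on every array. Acsl1, Acot2, Cpt1b, Hadha, Acat1 and Ucp2 had no probe set of their own in the annotation used, so neither the muscle form of the outer carnitine palmitoyltransferase nor the alpha subunit of the trifunctional protein was measured.

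Fatty acids reach a muscle fibre after lipoprotein lipase frees them in the capillary, cross the membrane with the help of CD36 and fatty acid transport proteins, and are bound in the cytosol by a fatty acid binding protein. Activated to acyl-CoA, they enter the mitochondrion on carnitine and are shortened by repeated rounds of oxidation, hydration, a further oxidation and thiolysis, with electrons passed to the respiratory chain through electron transfer flavoprotein. Slow and fast oxidative fibres depend on this pathway more than fast glycolytic fibres do, and PPARα is a transcription factor that switches on many of its genes.

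The study compared extraocular muscle, the small muscles that move the eye, with leg muscle in control mice and in mdx mice, which lack full-length dystrophin because of a mutation in Dmd carried by every cell. Extraocular muscle is known to be spared in dystrophin deficiency. The 4 groups of 5 arrays were leg muscle of control mice, leg muscle of mdx mice, extraocular muscle of control mice and extraocular muscle of mdx mice, with an age of 8 weeks in the labels and no treatment named. The control leg samples are labelled as gastrocnemius and soleus, while the mdx leg samples are labelled only as leg muscle, so the muscles sampled may have differed between the genotypes. Strain, sex and pooling of animals are not given in the sources used here. Nothing states that the 5 arrays of a group came from separate animals, so the tests measure the spread between arrays, which may be technical. Control and mdx arrays also carry different kinds of description, and a batch that goes with these cannot be told apart from genotype.

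Values are signals, the deposited intensities scaled so that every array has a trimmed mean of 500, and are given as mean ± SD over 5 arrays. Differences between groups are on the log2 scale from limma fitted to all 20 arrays, with the standard error (SE), and p-values are adjusted over the 7204 probe sets tested. A gene passed where its adjusted p was under 5%. Signals of different probe sets are not comparable, so levels are set only against the same gene in another group. Between 47.2% and 52.0% of probe sets reached a signal of 200 on an array. Dmd, the gene mutated in mdx mice, had signals of 100 to 212 in control and 37.3 to 126 in mdx leg muscle, and 204 to 325 in control and 102 to 175 in mdx extraocular muscle. All 11 general muscle fibre genes measured were bright enough to test. Leg control 1 and leg control 4 stood apart from the other leg controls: their mean log2 signals over 12 slow fibre genes were 12.91 and 8.69, against 11.50 to 11.58 in the other 3. Over marker genes bright enough to test, leg control 1 had the highest general muscle fibre sum of the leg controls, 78466 against 42913 to 48851. Its fast fibre sum was also the highest, 186686 against 75325 to 117692. Its macrophage and matrix sums were the lowest, 5838 against 7406 to 8165 and 30679 against 38876 to 44539. Leg control 4 had an epithelial and gland sum of 10865, against 1520 to 2890.

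In leg muscle at least 1 fatty acid gene fell in mdx mice at each step of the pathway except the peroxisomal one, and 1 gene rose. The peroxisomal step held only Hsd17b4. Of the 25 genes tested, 16 fell, which is 64.0%, against 7.15% of all probe sets tested. Cpt1a alone rose, against 10.7% of all probe sets. The log2 difference was below 0 for 24 of the 25, with a median of -0.49 against -0.06 over all probe sets. Within the 8 steps of the pathway, the median difference lay between -0.22 and -0.74. In 10 genes all 5 mdx arrays lay under all 5 control arrays, against 5.19% of all probe sets, and in Cpt1a above them, against 8.38%. Without leg control 1 and leg control 4 the number that fell was 12 rather than 16, and Cpt1a still rose. Whole muscle was profiled, so fewer fibres and less RNA per fibre cannot be told apart.

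Other cells differed between these groups too. All 28 macrophage genes measured, with no filter on low signals, had a higher mean signal in mdx than in control leg muscle. Their summed signals were 49207 to 65044 in mdx and 6237 to 8549 in control arrays (exact permutation test of the mean log2 signal, two-sided, p = 0.00794, adjusted p = 0.0286 over 36 marker tests). That p is the smallest that 5 arrays against 5 can give. Of 17 fibroblast and matrix genes measured 15 had a higher mean, with sums of 75269 to 86804 against 30722 to 44602 (exact permutation test, two-sided, p = 0.00794, adjusted p = 0.0286). Of 11 general muscle fibre genes measured 2 had a higher mean, with sums of 30591 to 52397 against 42913 to 78466 (exact permutation test, two-sided, p = 0.373, adjusted p = 0.56). The log2 difference was below 0 for 10 of the 11, with a median of -0.22. Sgca fell past the threshold, 1 of 11, against 7.15% of all probe sets. None of 11 fast fibre genes and none of 12 slow fibre genes passed. Their log2 differences were below 0 for 8 of 11 and 6 of 12, with medians of -0.33 and 0.01. The log2 ratio of the 3′ to the 5′ beta-actin control probe set was -1.86 ± 1.25 in mdx leg arrays and 0.50 ± 0.37 in control leg arrays (exact permutation test, two-sided, p = 0.00794, adjusted p = 0.0318 over 4 such tests), while that of Gapdh was -2.50 ± 0.14 and -2.48 ± 0.84. The part of these differences in the fall of the fatty acid genes was not tested.

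Among the 4 genes of uptake and binding that were tested, 3 fell in mdx leg muscle. Slc27a1 encodes FATP1, a fatty acid transport protein of the muscle membrane. Its signals were 456, 400, 761, 364 and 504 in the 5 control leg arrays and 338, 54.6, 267, 255 and 169 in the 5 mdx leg arrays. Every mdx array lay below every control array, the second of them by far the lowest. The fall was 2.61-fold, with a log2 difference of -1.38 (SE 0.37, adjusted p = 0.0101), the largest decrease among the 25 genes.

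Cd36, the membrane receptor for long-chain fatty acids, read 622, 685, 486, 518 and 448 in control leg muscle and 385, 419, 337, 417 and 424 in mdx leg muscle. It fell 1.38-fold (log2 -0.46, SE 0.14, adjusted p = 0.0218) with no overlap, but did not pass without leg control 1 (adjusted p = 0.055), leg control 2 (0.0701) or leg mdx 3 (0.066). Lpl, the lipase that frees fatty acids from circulating triglyceride, read 7258, 2965, 3490, 3316 and 3706 in controls and 2602, 2900, 2566, 2957 and 2189 in mdx mice. Leg control 1 was far above the other 4 controls, and the fall (log2 -0.58, SE 0.20, adjusted p = 0.0494) lost its call in 15 of the 20 fits without 1 array, at 0.143 without leg control 1. Fabp3, the heart and muscle fatty acid binding protein and the brightest gene of this step, read 13306, 9477, 9110, 6706 and 9396 in controls and 7251, 7697, 6831, 7692 and 6200 in mdx mice. The groups overlapped through leg control 4, the lowest control, and the log2 difference of -0.40 did not pass (adjusted p = 0.0726). Without leg control 4 it passed, at 0.0143.

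The carnitine shuttle held the 1 gene that rose and 4 that fell. Cpt1a, the liver form of the enzyme that loads fatty acids onto carnitine at the outer mitochondrial membrane, is found in many cell types other than muscle fibres. Its signals were 151, 66.4, 114, 312 and 111 in control leg muscle and 565, 802, 945, 824 and 955 in mdx leg muscle. The lowest mdx array was above the highest control array, and 4 of the 5 control arrays were under 200, the signal used in the filter. Cpt1a rose 6.12-fold (log2 2.61, SE 0.30, adjusted p = 1.59e-06), from 151 ± 94.9 to 818 ± 157. The rise was seen in the same arrays in which macrophage and matrix genes were high, and the part of those cells in it was not tested.

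The other carnitine genes went down. Crat, carnitine acetyltransferase, which moves acetyl groups between CoA and carnitine, read 3038, 2714, 3295, 3995 and 3625 in control leg muscle and 2466, 1951, 1705, 2172 and 1866 in mdx leg muscle. The groups did not overlap, and Crat fell 1.64-fold (log2 -0.71, SE 0.14, adjusted p = 0.000698). Slc25a20, the carrier that exchanges acylcarnitine for carnitine across the inner membrane, read 2619, 3150, 3226, 1797 and 2409 in controls and 1929, 1816, 1670, 1769 and 1076 in mdx mice. The groups overlapped only through leg control 4, which lay among the mdx arrays, and the fall was 1.60-fold (log2 -0.67, SE 0.16, adjusted p = 0.00469).

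Cpt2, which returns the fatty acid to CoA inside the mitochondrion, read 3524, 3640, 3311, 3208 and 3929 in control and 2948, 2863, 2259, 2446 and 2254 in mdx leg muscle. All mdx arrays were lower, a fall of 1.38-fold (log2 -0.47, SE 0.12, adjusted p = 0.00607). A second, dimmer Cpt2 probe set gave a log2 difference of -0.17 (adjusted p = 0.801), and with the mean of both probe sets Cpt2 did not pass (adjusted p = 0.255). Mlycd, malonyl-CoA decarboxylase, which removes the inhibitor of the outer carnitine enzyme, ranged from 2857 to 4279 in controls and from 1396 to 3145 in mdx mice. It passed narrowly (log2 -0.54, SE 0.19, adjusted p = 0.0498) and did not pass in 15 of the 20 fits without 1 array, at up to 0.165 without leg mdx 5.

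Of the acyl-CoA dehydrogenases, which open each round of oxidation and differ in the chain length they prefer, 1 of 3 tested fell. Acadm, the medium-chain enzyme, read 9250, 8900, 8972, 5789 and 7625 in control leg muscle and 5843, 5530, 5440, 6600 and 3490 in mdx leg muscle. Leg control 4 lay below the highest mdx array and leg mdx 5 was the lowest of all 10. The fall was 1.52-fold (log2 -0.60, SE 0.16, adjusted p = 0.00987), but it did not pass after quantile normalization (adjusted p = 0.095) or with only the leg arrays in the fit (0.0505). The long-chain enzyme gene Acadl had signals of 1391 to 1801 in controls and 897 to 1457 in mdx mice, a log2 difference of -0.45 (adjusted p = 0.0933). The short-chain enzyme gene Acads had 444 to 879 and 491 to 589 (log2 -0.19, adjusted p = 0.568). Acadvl, the very long-chain enzyme, had signals of 3.92 to 78.3 over all 20 arrays and was not tested.

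Among the later steps of the cycle 2 of 4 tested genes fell. Hadh, the short-chain 3-hydroxyacyl-CoA dehydrogenase, which catalyses the further oxidation, read 4034, 4166, 3359, 2878 and 4273 in control leg muscle and 2439, 2310, 1915, 2542 and 1914 in mdx leg muscle. No array overlapped, and Hadh fell 1.68-fold (log2 -0.74, SE 0.14, adjusted p = 0.000745). Hadhb, the thiolase subunit of the trifunctional protein for long chains, read 10758, 7221, 7770, 6438 and 8936 in controls and 6006, 6188, 5766, 6599 and 5257 in mdx mice. It fell by 0.44 on the log2 scale (SE 0.14, adjusted p = 0.032), with 1 control array, leg control 4, inside the mdx range. It did not pass without leg control 1 (adjusted p = 0.0889), leg control 5 (0.074), leg mdx 3 (0.0632) or leg mdx 5 (0.0822), nor after quantile normalization (0.173).

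Acaa2, the mitochondrial thiolase of the last step and the brightest gene of this group, read 14732, 11066, 10853, 8343 and 10713 in controls and 10624, 8826, 6613, 7842 and 9930 in mdx mice. The arrays overlapped, with a log2 difference of -0.34 (adjusted p = 0.217). Echs1, the short-chain enoyl-CoA hydratase, ranged from 1020 to 1670 in controls, the highest being leg control 1, and from 755 to 1142 in mdx mice (log2 -0.34, adjusted p = 0.241).

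The auxiliary enzymes that prepare unsaturated fatty acids for the cycle had the smallest adjusted p-values among the decreases. Both tested genes fell. Ech1, a dienoyl-CoA isomerase, read 7589, 5663, 6009, 4960 and 5980 in control leg muscle and 3847, 3529, 3594, 3873 and 3460 in mdx leg muscle. The mdx arrays lay within a narrow band well below the lowest control, and Ech1 fell 1.64-fold (log2 -0.71, SE 0.12, adjusted p = 0.000172). Eci1, the enoyl-CoA isomerase of the mitochondrion, read 6526, 4404, 4399, 4317 and 4158 in controls and 2967, 2808, 2869, 2894 and 2329 in mdx mice. Leg control 1 was the highest and leg mdx 5 the lowest, but every mdx array was below every control, and Eci1 fell 1.70-fold (log2 -0.76, SE 0.12, adjusted p = 9.46e-05). Decr1, the dienoyl-CoA reductase that acts in the same step, had signals of 18.8 to 57.9 over the 20 arrays and was not tested.

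Electron transfer flavoprotein takes electrons from the acyl-CoA dehydrogenases, and both of its subunit genes fell. Etfa read 3411, 3341, 2968, 3162 and 3020 in control leg muscle and 2187, 2525, 2032, 2302 and 2500 in mdx leg muscle. Etfb read 4963, 4785, 3457, 3754 and 4093 in controls and 2514, 3076, 3042, 3400 and 3044 in mdx mice. Neither gene overlapped, and their log2 differences were close to each other, -0.46 for Etfa (SE 0.11, adjusted p = 0.00487) and -0.47 for Etfb (SE 0.13, adjusted p = 0.0117). Etfdh, the membrane enzyme that passes the electrons on to ubiquinone, ranged from 1294 to 2225 in controls and from 740 to 1529 in mdx mice. Its difference of -0.53 did not pass (adjusted p = 0.0692), but passed without leg control 4 (0.0284).

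Hsd17b4, the multifunctional enzyme of fatty acid oxidation in peroxisomes, was the only gene of the 33 placed in the peroxisomal step. It read 616, 953, 994, 599 and 1199 in control and 978, 535, 791, 656 and 721 in mdx leg muscle. The groups overlapped widely (log2 -0.22, adjusted p = 0.589).

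Among the regulators and uncoupling proteins 2 of 3 tested genes fell. Ucp3, an uncoupling protein of skeletal muscle mitochondria that responds to fatty acid supply, read 2263, 898, 956, 1039 and 1264 in control leg muscle and 993, 735, 763, 491 and 380 in mdx leg muscle. Leg control 1 was far above the rest and leg mdx 1 lay inside the control range. The fall was 1.90-fold (log2 -0.92, SE 0.25, adjusted p = 0.0111), and it did not pass without both leg control 1 and leg control 4 (adjusted p = 0.0727).

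Ppara, the gene of the transcription factor PPARα, read 752, 596, 714, 604 and 944 in controls and 686, 411, 463, 483 and 453 in mdx mice. Leg mdx 1 lay inside the control range, and the other 4 were below all controls (log2 -0.54, SE 0.16, adjusted p = 0.0246). Ppara did not pass without leg control 5 (adjusted p = 0.0778), leg mdx 2 (0.0673), leg mdx 3 (0.0556) or leg mdx 5 (0.0582). Pdk4, a kinase that turns pyruvate oxidation off when fatty acids are burned and a well known PPAR target, read 19992, 6698, 7424, 3885 and 6513 in controls and 9437, 7339, 7247, 4211 and 2144 in mdx mice. The control arrays spread widely, 8902 ± 6343, and the difference did not pass (log2 -0.49, SE 0.36, adjusted p = 0.399).

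**Figure D1:**
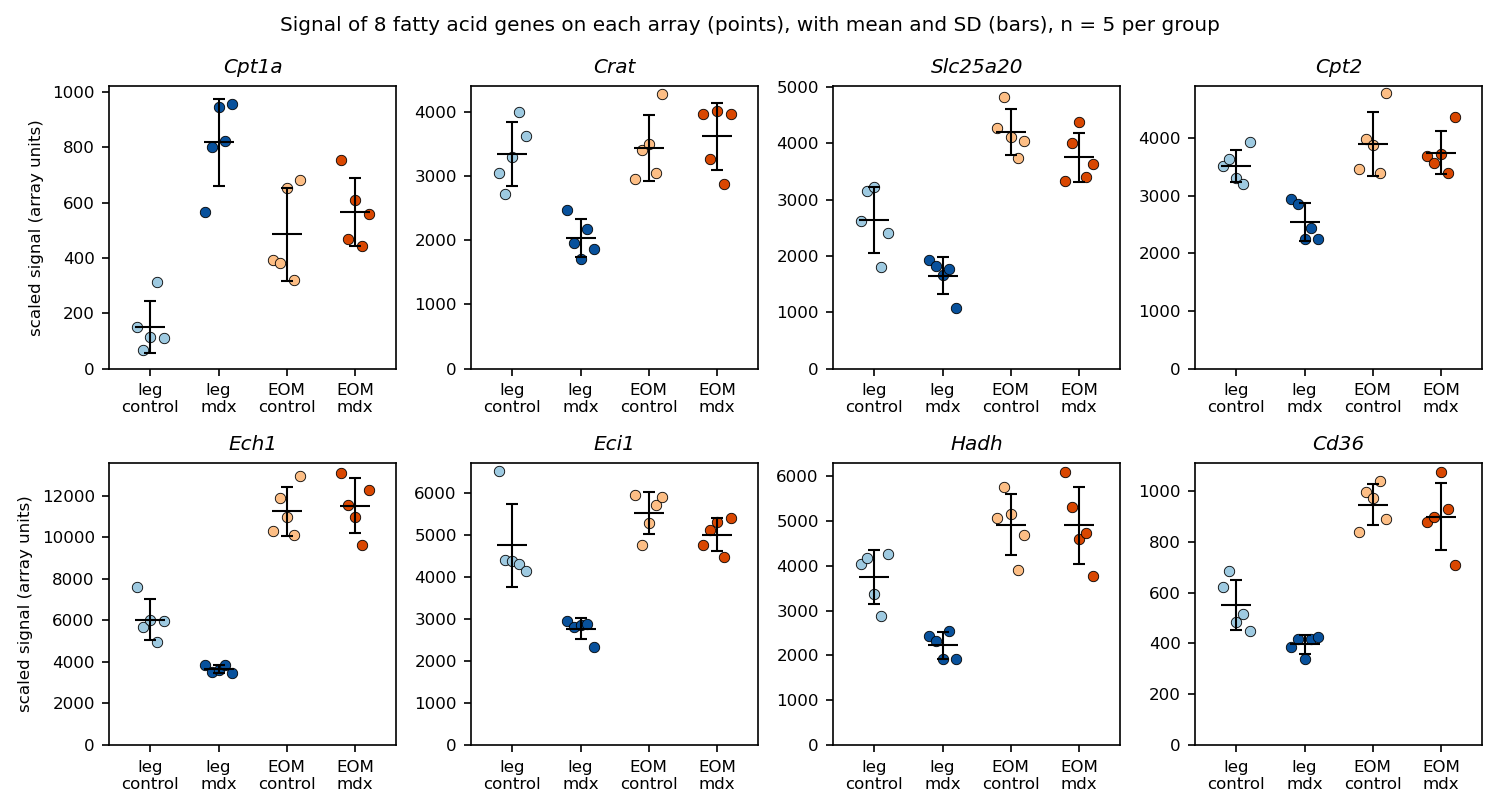
Signal (array units, linear axes from 0) of 8 fatty acid genes on each array (points) in leg and extraocular (EOM) muscle of control and mdx mice, with mean and SD (bars, n = 5). Cpt1a is high in mdx leg muscle, 565 to 955 against 66.4 to 312 in controls, the other genes are low there, and the extraocular groups overlap for each gene.

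In extraocular muscle no fatty acid gene passed between mdx and control mice. The count was 0 of 25 in limma, against 0.0833% of all probe sets in either direction (0.0416% upward and 0.0416% downward). None of the 25 had an unadjusted p under 5% either, compared with 369 of the 7204 probe sets. The differences ranged from -0.26 to 0.35 on the log2 scale, 11 above 0 and 14 below, with a median of -0.05. The lowest adjusted p was 0.979, for Etfa. In no gene did the 5 mdx arrays lie apart from the 5 control arrays, which happened in 0.5% of all probe sets upward and 0.652% downward. Macrophage genes summed to 10737 to 19012 in mdx and 9617 to 13786 in control arrays of this muscle (exact permutation test, two-sided, p = 0.0397, adjusted p = 0.102). General muscle fibre genes summed to 38890 to 59199 against 32333 to 48821 (p = 0.00794, adjusted p = 0.0286, same exact test), with 9 of 11 means higher in mdx. Epithelial and gland genes summed to 6705 to 8301 against 6017 to 7201 (p = 0.0238, adjusted p = 0.0659, same exact test).

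The spread within extraocular muscle sets what could be seen. Cpt1a read 393, 382, 654, 321 and 681 in control and 753, 470, 609, 442 and 558 in mdx extraocular muscle. The groups overlapped, with a log2 difference of 0.26 and a 95% interval of -0.37 to 0.89, which lies wholly below the leg difference of 2.61. Crat read 2952, 3402, 3497, 3051 and 4271 in controls and 3958, 3262, 4014, 2871 and 3960 in mdx mice (log2 0.07, interval -0.21 to 0.36). Slc25a20 read 4280, 4833, 4117, 3735 and 4045 and 3338, 4012, 4374, 3397 and 3636, and Cpt2 read 3460, 3988, 3885, 3393 and 4783 and 3694, 3567, 3734, 3404 and 4371, in the same order. In these carnitine genes the control and mdx arrays interleaved.

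Ech1 read 10281, 11901, 10976, 10127 and 12941 in control and 13114, 11541, 10956, 9638 and 12288 in mdx extraocular muscle (log2 0.03, interval -0.22 to 0.28). Eci1 read 5960, 4770, 5294, 5725 and 5911 in controls and 4764, 5136, 5306, 4476 and 5409 in mdx mice (log2 -0.14, interval -0.39 to 0.11). Hadh read 5063, 5768, 5159, 3904 and 4689 in controls and 6095, 5300, 4605, 4733 and 3773 in mdx mice (log2 -0.01, interval -0.31 to 0.29). Each of these 3 intervals excludes the estimated fall of the same gene in leg muscle, but that estimate has its own error. The effects in the muscles are compared directly below. Hadhb read 9729, 8310, 8603, 8913 and 7857 and 11539, 7855, 8179, 7800 and 10628, Acaa2 9378, 12338, 14651, 10377 and 14478 and 18289, 13868, 12242, 10160 and 15390, and Acadm 8651, 9444, 8075, 8466 and 7057 and 9594, 8521, 9466, 8614 and 7202, control before mdx. The highest Hadhb and Acaa2 signals were both on extraocular mdx 1, above every other array of either muscle.

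For uptake, Cd36 read 840, 997, 972, 1039 and 889 in control and 880, 900, 1076, 931 and 708 in mdx extraocular muscle. Lpl read 3210, 3766, 3545, 2708 and 5198 in controls and 5047, 3641, 4443, 4013 and 5422 in mdx mice. Slc27a1 read 1177, 930, 816, 460 and 756 in controls and 995, 734, 820, 499 and 566 in mdx mice. The order was not the same for all 3: Lpl was on average higher in mdx (log2 0.31), and Cd36 and Slc27a1 were lower (-0.08 and -0.18), none of them past the test. Fabp3 read 7794, 8805, 8276, 7525 and 11623 and 8123, 7620, 8863, 7709 and 9072, control before mdx, a log2 difference of -0.07.

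Etfa read 3128, 3372, 3036, 3319 and 4439 in control extraocular muscle, the last array well above the others, and 2659, 3081, 3289, 2662 and 3134 in mdx (log2 -0.21). Etfb read 5218, 6247, 5542, 4933 and 5974 in controls and 4954, 4919, 5806, 4658 and 6785 in mdx mice (log2 -0.05). Neither subunit gene separated the groups. Ppara read 1392, 973, 957, 1057 and 764 in controls and 1127, 1102, 1246, 1218 and 1076 in mdx mice (log2 0.19). Ucp3 read 659, 527, 580, 742 and 517 and 579, 531, 641, 429 and 404 (log2 -0.24), and Pdk4 read 6938, 3784, 3772, 2901 and 4747 and 6293, 5655, 5367, 4428 and 5471 (log2 0.35), control before mdx. The mdx arrays were the tighter of the groups for Ppara and for Pdk4. Hsd17b4 read 872, 677, 709, 958 and 574 and 1023, 1035, 1215, 514 and 688 (log2 0.20). The genes given here only by range were Mlycd, Acadl, Acads, Echs1 and Etfdh: their log2 differences ran from -0.26 for Etfdh to 0.07 for Acadl. Mlycd covered 2656 to 3678 in controls and 1855 to 3382 in mdx mice, Acadl 2062 to 2942 and 1726 to 3695, and Acads 594 to 872 and 414 to 919. Echs1 covered 1735 to 3039 and 1330 to 2755, and Etfdh 1870 to 2413 and 1333 to 2354, so the groups overlapped in all 5.

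**Figure D2:**
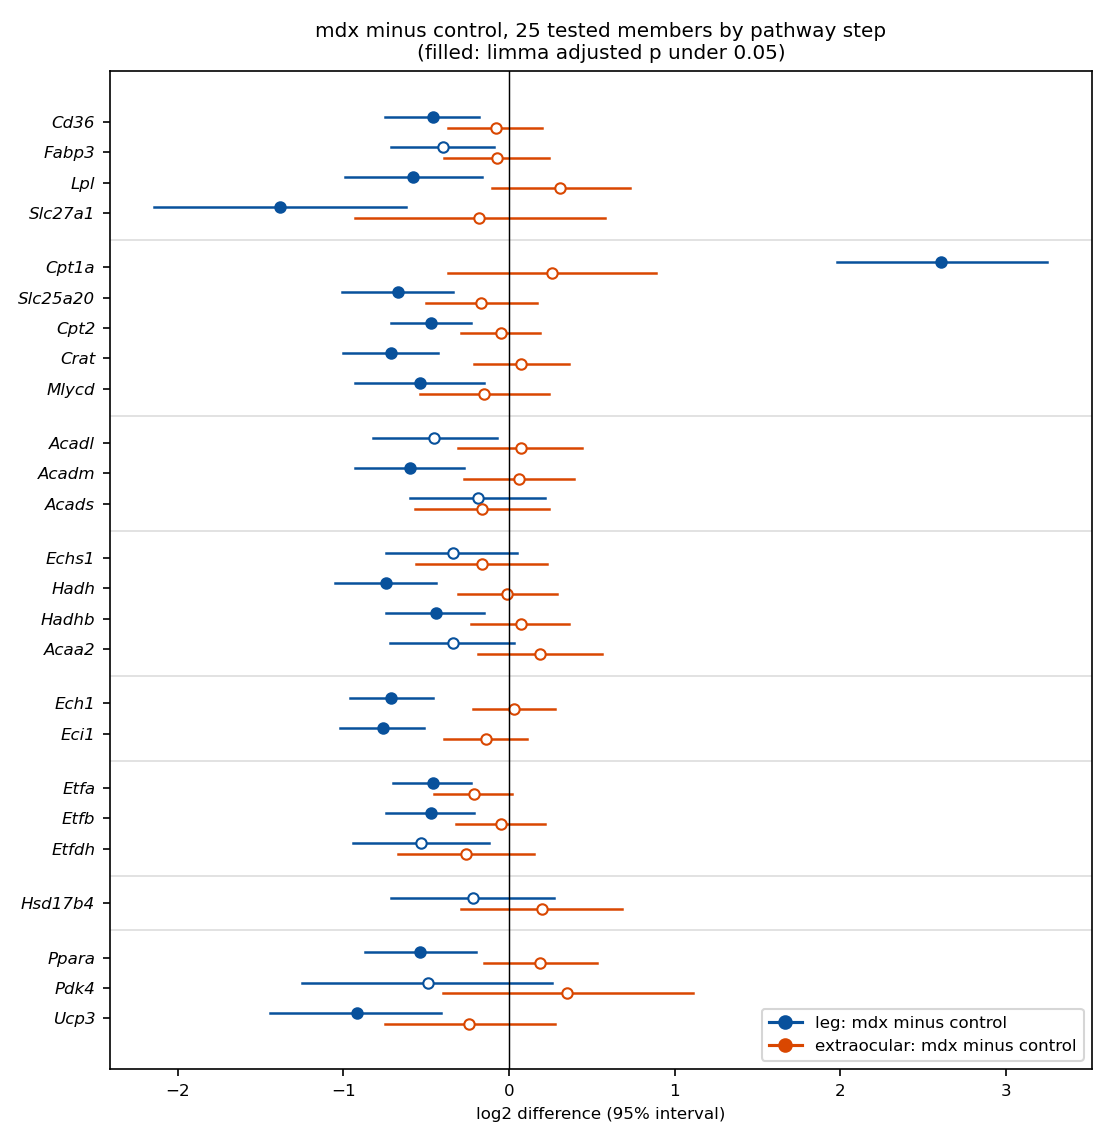
Log2 difference between mdx and control mice (x axis) with its 95% interval for the 25 tested genes, in pathway order, in leg muscle (blue) and extraocular muscle (orange), with filled points where limma's adjusted p passed at 5%. In leg muscle 16 points are filled left of 0 and Cpt1a right of it, while no extraocular point is filled.

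That leg muscle passed and extraocular muscle did not does not by itself show a difference, so the mdx effects were compared directly. The effect in leg muscle minus that in extraocular muscle passed for 5 of the 25 genes: 4 below 0, against 1.29% of all probe sets, and 1 above 0, against 4.93%. Ech1 (log2 -0.74, SE 0.17, adjusted p = 0.00899), Crat (-0.79, SE 0.19, adjusted p = 0.0165), Eci1 (-0.62, SE 0.17, adjusted p = 0.0324) and Hadh (-0.73, SE 0.20, adjusted p = 0.0336) fell further in leg muscle. Cpt1a rose more there (2.35, SE 0.43, adjusted p = 0.00143). Of the 25 differences 24 were below 0, with a median of -0.51 against -0.02 over all probe sets. Other lists moved in the same contrast: general muscle fibre genes were below 0 for 10 of 11 (median -0.43) and glycolysis and glycogen genes for 24 of 25 (-0.40), oxidative phosphorylation genes for 55 of 60 (-0.46) and tricarboxylic acid cycle genes for 14 of 15 (-0.43). The 21 of 28 macrophage genes that were bright enough to test, some only through the mdx leg arrays, had a median of 2.32, and 16 of 17 fibroblast and matrix genes one of 1.32. Their part in the difference of the fatty acid genes was not tested. For 12 of the genes that fell in leg muscle the difference between the muscles did not pass, and so is not shown. Among these were Acadm (-0.66, adjusted p = 0.0942), Ppara (-0.73, adjusted p = 0.0664) and Lpl (-0.89, adjusted p = 0.0674).

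Ech1, Crat and Cpt1a passed in all 32 alternative fits of this difference. Hadh did not pass in 12, 10 of which left out 1 array, with adjusted p up to 0.0703, without leg mdx 3. Eci1 did not pass in 8, 6 of which left out 1 array, with adjusted p up to 0.0688, without extraocular control 2, and 0.0571 without both leg control 1 and leg control 4.

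The promoters of these genes show what surrounds their start sites. The windows below run from 250 bases before to 50 after the start, are from RefSeq on GRCm38.p6 and read along the gene's own strand. Crat is named only. Capitals mark GGGCGG or its complement CCGCCC, the core of the site of the general factor Sp1, and AGGTCA or its complement TGACCT, the short element that nuclear receptors such as PPARα recognise. The first 3 are genes that fell in mdx leg muscle, and the last is the gene that rose.
Ech1, chr7:28825088-28825387, plus strand: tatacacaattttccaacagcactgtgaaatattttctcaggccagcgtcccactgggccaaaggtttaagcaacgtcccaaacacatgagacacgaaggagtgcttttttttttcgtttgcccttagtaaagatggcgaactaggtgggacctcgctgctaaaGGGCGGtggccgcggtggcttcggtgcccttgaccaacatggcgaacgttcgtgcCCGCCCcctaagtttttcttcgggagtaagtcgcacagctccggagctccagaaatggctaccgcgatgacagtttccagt
Eci1, chr17:24426433-24426732, plus strand: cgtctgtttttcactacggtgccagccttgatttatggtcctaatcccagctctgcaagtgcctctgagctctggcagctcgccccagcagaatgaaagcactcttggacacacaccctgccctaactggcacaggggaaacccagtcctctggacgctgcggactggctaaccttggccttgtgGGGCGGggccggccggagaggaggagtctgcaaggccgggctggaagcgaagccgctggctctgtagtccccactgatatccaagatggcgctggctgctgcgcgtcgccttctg
Hadh, chr3:131272052-131272351, minus strand: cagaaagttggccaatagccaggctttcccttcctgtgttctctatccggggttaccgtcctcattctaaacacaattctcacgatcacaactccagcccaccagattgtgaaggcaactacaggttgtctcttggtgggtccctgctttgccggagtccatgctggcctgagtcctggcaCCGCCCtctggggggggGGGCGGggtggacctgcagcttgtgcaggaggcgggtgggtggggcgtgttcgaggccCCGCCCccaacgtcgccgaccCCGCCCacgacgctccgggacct
Cpt1a, chr19:3323051-3323350, plus strand: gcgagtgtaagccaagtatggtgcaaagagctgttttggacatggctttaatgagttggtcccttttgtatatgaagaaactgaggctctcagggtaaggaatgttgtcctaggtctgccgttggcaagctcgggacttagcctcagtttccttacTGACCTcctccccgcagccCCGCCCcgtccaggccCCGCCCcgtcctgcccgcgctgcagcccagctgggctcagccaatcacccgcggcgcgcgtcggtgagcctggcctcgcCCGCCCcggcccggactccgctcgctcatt
The GGGCGG core occurred 2 times in the Ech1 window, 1 time in Eci1, 4 times in Hadh and 3 times in Cpt1a. AGGTCA occurred 1 time in Cpt1a, as TGACCT, and in none of the other 3 windows.

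Over the pathway, 26 of the 33 genes matched the RefSeq promoter table, with 29 windows among 32851 in all. On either strand, GGGCGG was in 65.5% of the pathway's windows and in 35.7% of all windows. AGGTCA was in 20.7% of the pathway's windows, those of Acadm, Acadvl, Cd36, Cpt1a, Echs1 and Ucp3, and in 16.3% of all windows. PPARα binds with its partner RXR to 2 copies of AGGTCA in a row with 1 base between them. No window of the pathway held such a pair without a mismatch, and 0.0396% of all windows did. With up to 2 mismatches in the 12 fixed letters, 17.2% of the pathway's windows and 3.86% of all windows held a match. The matches are shown because they are the nearest to that pair in the pathway, with capitals for the letters that match.
Cd36, chr5:17835947-17835959, plus strand: AaGTCAgAGGcCA
Slc25a20, chr9:108662142-108662154, plus strand: AGGTgAaAGGTCg
Echs1, chr7:140116492-140116504, minus strand: AGGTCAcgGGTCc
Etfa, chr9:55512308-55512320, plus strand: AGGgCAaAGGTaA
Ucp3, chr7:100472940-100472952, plus strand: AGGTttcAGGTCA
Each matches 10 of the 12 letters. Of these 5 genes, Cd36, Slc25a20, Etfa and Ucp3 fell in mdx leg muscle and Echs1 did not pass, where 16 of all 25 genes tested fell. Whether the fall goes with such a match was not tested. TNAAGGTCA, the element of the oestrogen-related receptors, contains AGGTCA and was in none of the pathway's windows and in 1.28% of all windows. Such matches describe letters, not binding.

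In control mice, extraocular muscle had more of several fatty acid genes than leg muscle. Of the 25 genes 8 were higher, against 10.3% of all probe sets, and 1, Ucp3, was lower, against 7.41%. The median log2 difference was 0.23, against 0.02 over all probe sets. Cpt1a was 3.53-fold higher, at 486 ± 168 against 151 ± 94.9 (log2 1.82, adjusted p = 0.00018). Ech1 was 1.87-fold higher, at 11245 ± 1179 against 6040 ± 963 (log2 0.90, adjusted p = 1.1e-05). Cd36 was 1.73-fold higher, at 947 ± 81.4 against 552 ± 98.4 (log2 0.79, adjusted p = 0.000278). All 5 extraocular arrays were above all 5 leg arrays for these 3 genes, and for Slc25a20, Acadl and Echs1, which makes 6 genes, against 7.69% of all probe sets.

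Slc25a20 (log2 0.70, adjusted p = 0.00402), Echs1 (0.90, adjusted p = 0.00178) and Acadl (0.64, adjusted p = 0.0164) cover the carrier and consecutive steps of the cycle. Etfb (0.42, adjusted p = 0.0274) and Ppara (0.50, adjusted p = 0.0351) were nearer to the threshold. Etfb did not pass without extraocular control 2 (adjusted p = 0.0736), 3 (0.0506) or 5 (0.0601), nor without leg control 3 (0.081), 4 (0.063) or 5 (0.051). Ppara did not pass in 11 of 33 fits, with adjusted p of up to 0.123, without both leg control 1 and leg control 4. Ucp3 was 2.01-fold lower in extraocular muscle, at 605 ± 95.2 against 1284 ± 565 (log2 -1.01, adjusted p = 0.00625), with no overlap between the arrays, against 5.83% of all probe sets. Crat, Hadhb, Acadm, Acaa2, Cpt2 and Etfa differed by 0.04 to 0.14 and did not pass.

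Marker lists of other cells were compared between the control muscles as well. Macrophage genes summed to 9617 to 13786 in extraocular and 6237 to 8549 in leg muscle, with 20 of 28 means higher (exact permutation test, two-sided, p = 0.00794, adjusted p = 0.0286). Fibroblast and matrix genes summed to 40461 to 63320 against 30722 to 44602, which overlapped (p = 0.0238, adjusted p = 0.0659, same exact test). Nerve and Schwann cell genes summed to 8171 to 9836 against 2414 to 4004. General muscle fibre genes summed to 32333 to 48821 against 42913 to 78466, with 4 of 11 means higher. For both lists the same exact test gave p = 0.00794 and adjusted p = 0.0286. The log2 differences of the 11 general muscle fibre genes had a median of only -0.07 and ran from -5.49 to 1.31. Endothelial genes, of a cell type that expresses Cd36, summed to 7836 to 9382 against 4796 to 8217, with 10 of 11 means higher (p = 0.0873, adjusted p = 0.175, same exact test). The part of these lists in the differences between the control muscles was not tested.

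In mdx mice extraocular muscle had higher signals than leg muscle for 17 of the 25 genes, against 9.24% of all probe sets, and lower signals for none, against 8.83%. The median log2 difference was 0.71, against 0.00 over all probe sets, and in 16 genes all extraocular arrays were above all leg arrays, against 7.38%. Ech1 was 3.13-fold higher, at 11507 ± 1322 against 3660 ± 188 (log2 1.65, adjusted p = 1.97e-09). Slc27a1 was 3.80-fold higher (log2 1.93, adjusted p = 0.000592), Ppara 2.35-fold (1.23, adjusted p = 9.47e-06) and Cd36 2.26-fold (1.17, adjusted p = 2.06e-06). The genes that passed were 3 of 4 of uptake, 3 of 5 of the carnitine shuttle, 2 of 3 dehydrogenases, 4 of 4 of the later steps, 2 of 2 auxiliary enzymes, 2 of 3 of electron transfer and 1 of 3 regulators. One of the carnitine genes was Cpt2, whose dimmer probe set went the other way (log2 -0.46, adjusted p = 0.453). With the mean of both probe sets Cpt2 did not pass here (adjusted p = 0.892). Cpt1a, higher in extraocular muscle of controls, was at 566 ± 124 in mdx extraocular and 818 ± 157 in mdx leg muscle (log2 -0.53, adjusted p = 0.262).

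This comparison uses the mdx leg arrays that the comparison of mdx with control leg muscle uses, and the control comparison uses the same control leg arrays, so the sets of differences are not independent of each other. Set side by side, Hadh differed between the muscles by 0.40 in controls (adjusted p = 0.0619) and by 1.13 in mdx mice (adjusted p = 6.23e-06). In controls Hadh passed in 6 of 33 alternative fits, with adjusted p from 0.0161 after quantile normalization; the others were array weights (0.0176), the fit without extraocular control 4 (0.0333), the replicate block (0.0411), the fit without extraocular mdx 5 (0.046) and the filter at 500 (0.0485). Crat differed by 0.04 (adjusted p = 0.876) and by 0.83 (adjusted p = 0.00015). Eci1 differed by 0.23 (adjusted p = 0.216) and by 0.86 (adjusted p = 2.54e-05), and in controls passed after quantile normalization (0.0205), without leg control 1 (0.0216) and without both leg control 1 and leg control 4 (0.0408). These are the same changes as the differences of mdx effects given above, read the other way. Marker lists of other cells also differed between the mdx muscles, by the same exact permutation test. Macrophage genes summed to 10737 to 19012 in extraocular and 49207 to 65044 in leg muscle, and fibroblast and matrix genes to 44280 to 60252 against 75269 to 86804. Higher in extraocular muscle were nerve and Schwann cell genes, at 7586 to 8629 against 2734 to 3931, and epithelial and gland genes, at 6705 to 8301 against 2238 to 2750. For each of these 4 lists the exact test gave p = 0.00794 and adjusted p = 0.0286. Endothelial genes, of a cell type that also expresses Cd36 and carries Lpl at its surface, summed to 7119 to 9560 against 5176 to 6898 (p = 0.0159, adjusted p = 0.0519, exact permutation test). General muscle fibre genes summed to 38890 to 59199 against 30591 to 52397 (p = 0.159, adjusted p = 0.272, exact permutation test). The part of these lists in the differences was not tested.

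**Figure D3:**
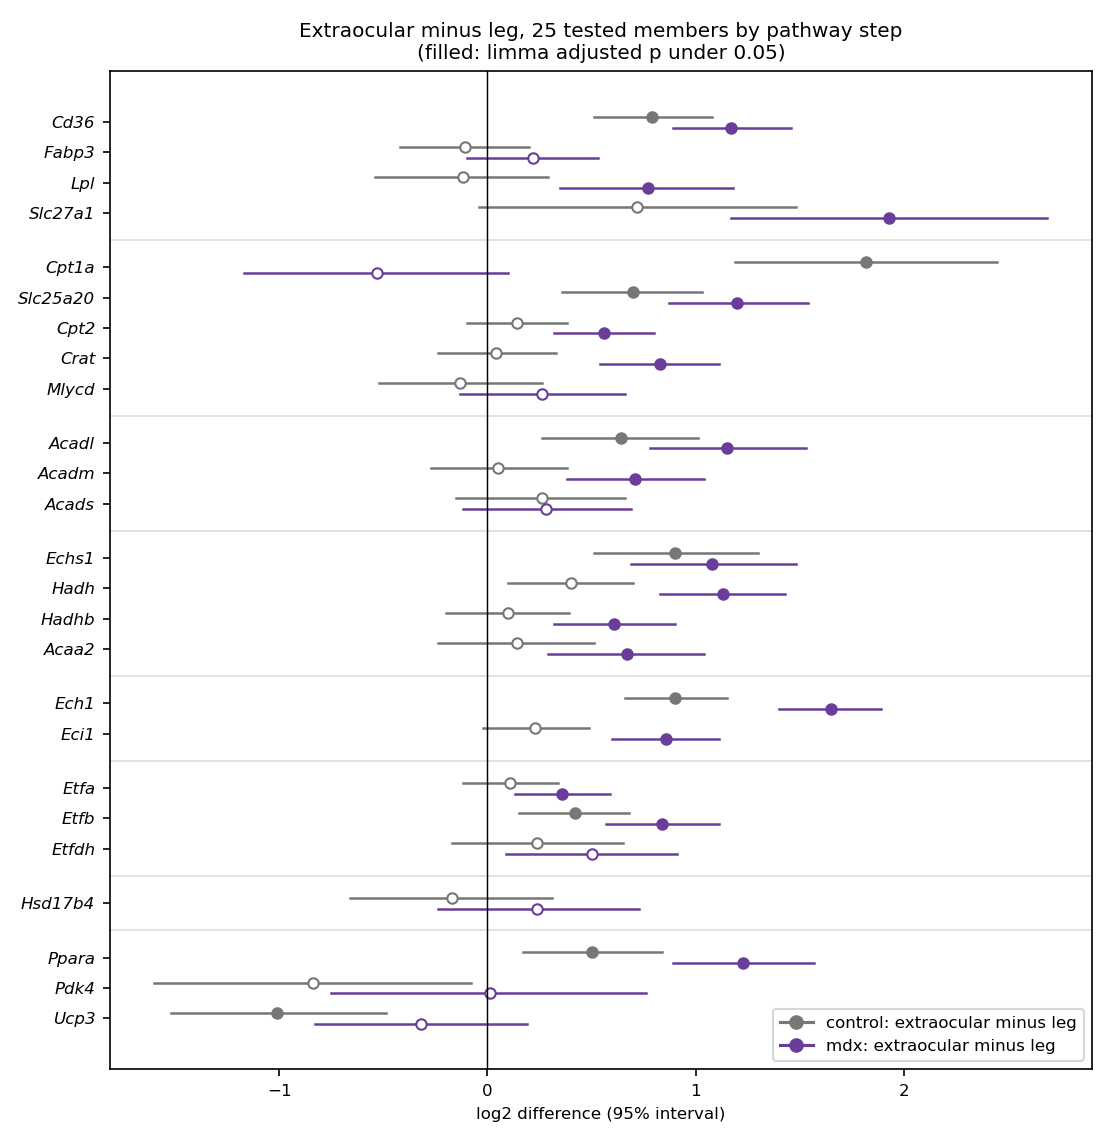
Log2 difference of extraocular minus leg muscle (x axis) with its 95% interval for the 25 tested genes, in pathway order, in control mice (grey) and mdx mice (purple), with filled points where limma's adjusted p passed at 5%. There are 8 filled points right of 0 in controls and 17 in mdx mice, and Cpt1a is the gene whose mdx point lies far left of its control point.

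The decrease was also followed array by array. For each array the log2 signals of the 25 genes were set against their mean in control leg muscle, and the median was taken. The 5 mdx leg arrays had medians of -0.42, -0.43, -0.62, -0.46 and -0.65, with 22 to 24 of the 25 genes below the control mean. The control leg arrays had 0.20, -0.06, -0.05, -0.24 and -0.03, so every mdx array was below every control. Leg control 1 was the highest control and leg control 4 the lowest, in the order of their slow fibre levels. The slow fibre levels of the mdx leg arrays, 10.96 to 11.84, spanned those of the other 3 controls, whose medians were -0.03 to -0.06. The 21 macrophage genes bright enough to test summed to 48318, 51554, 63196, 59689 and 63077 in mdx leg arrays 1 to 5. Some of these genes were bright enough only through those arrays. In leg controls 1 to 5 they summed to 5838, 7803, 8165, 7842 and 7406. The part of slow fibres or macrophages in the medians was not tested. Extraocular arrays had medians of 0.14 to 0.40 in controls and 0.04 to 0.28 in mdx mice.

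**Figure D4:**
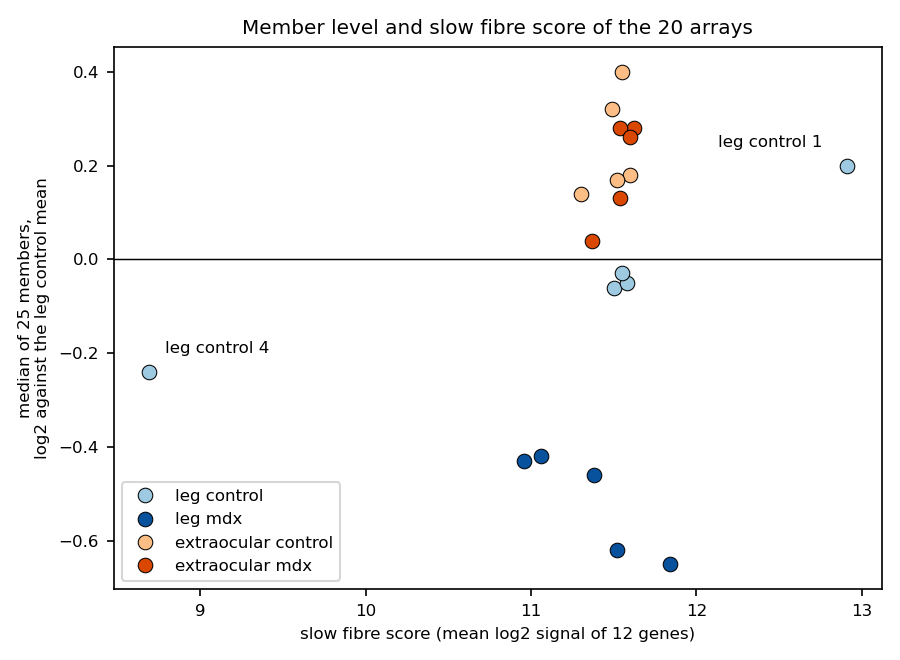
Median over the 25 genes of the log2 signal relative to mean control leg muscle (y axis) against the mean log2 signal of 12 slow fibre genes (x axis), 1 point per array, coloured by group. The 5 mdx leg points lie below the rest at -0.42 to -0.65, and leg control 1 and leg control 4 are the extremes of the x axis.

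Other genes of energy metabolism were listed to set the pathway beside its neighbours. Of 31 other fatty acid and ketone body genes tested, 6 fell in mdx leg muscle, or 19.4%, against 7.15% of all probe sets. Another 2 rose, or 6.45%, against 10.7% of all probe sets, and the median was -0.21. Ivd, an acyl-CoA dehydrogenase of leucine breakdown, went from 987 ± 342 to 471 ± 124 (adjusted p = 0.000725), and Oxct1, which activates ketone bodies, from 3768 ± 723 to 2360 ± 134 (adjusted p = 0.000506). Vldlr, a lipoprotein receptor, fell from 380 ± 70 to 185 ± 61.5 (adjusted p = 0.00111). Plin2, the coat protein of lipid droplets, rose from 931 ± 160 to 1642 ± 354 (log2 0.81, adjusted p = 0.000246). In extraocular muscle 0 of these 31 passed, against 0.0833% of all probe sets. Vldlr (log2 -1.40, adjusted p = 0.00802) and Mgll, a monoglyceride lipase (-0.72, adjusted p = 0.0251), were the 2 whose mdx effects differed between the muscles. Both were below 0, as were 1.29% of all probe sets that passed in this direction. Mgll was named after its values were seen.

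The decrease was not limited to fatty acid genes. In mdx leg muscle 6 of 15 genes of the tricarboxylic acid cycle fell (40.0%, median -0.40), 23 of 60 of oxidative phosphorylation (38.3%, median -0.43, with 1 that rose) and 10 of 25 of glycolysis and glycogen (40.0%, median -0.42). The fatty acid genes had 64.0% and a median of -0.49. Of all probe sets tested, 7.15% fell and 10.7% rose. No test compared the lists, so a difference between them is not shown. Examples are Idh3a, a subunit of isocitrate dehydrogenase, from 4619 ± 438 to 3229 ± 222 (adjusted p = 0.00107), and Uqcrc1, a core subunit of complex III, from 11485 ± 848 to 7545 ± 831 (adjusted p = 0.000258). Hk2, the hexokinase of muscle, fell from 4867 ± 822 to 2520 ± 317 (adjusted p = 2.17e-05), and Slc2a4, the insulin-responsive glucose transporter, from 5724 ± 721 to 3451 ± 476 (adjusted p = 0.000247). In extraocular muscle 0 genes of these 3 lists passed between mdx and control mice, against 0.0833% of all probe sets.

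Between the muscles of control mice the lists were again set side by side. Oxidative phosphorylation had 1 gene higher and 1 lower of 60 in extraocular muscle, with a median of -0.09, and the tricarboxylic acid cycle 1 higher of 15, with a median of -0.00. Glycolysis and glycogen had 2 higher and 8 lower of 25, with a median of -0.16. The 25 fatty acid genes had 8 higher and 1 lower and a median of 0.23. Of all probe sets tested, 10.3% were higher and 7.41% lower, with a median of 0.02. Ppargc1a, a coactivator of mitochondrial and fatty acid genes from the list of other fatty acid genes, was at 438 ± 146 in control extraocular and 200 ± 46.5 in control leg muscle (log2 1.08, adjusted p = 0.0152), and did not pass between mdx and control leg muscle (-0.20, adjusted p = 0.711). It was named here after its values were seen.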

How the data were processed

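One-colour Affymetrix arrays measured total RNA of the 4 groups, on 5 arrays each. The authors deposited a linear intensity for each of 12654 probe sets, already scaled to a 2% trimmed mean of 1500.1 on each array. The summarising software was not given in the sources used here. No pair of the 20 arrays held identical values.

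Each array was rescaled to a 2% trimmed mean of 500 over the 12588 probe sets that are not Affymetrix controls, a floor of 50 was applied, which makes folds of dim genes too small, and values were converted to log2. Printed signals are without that floor and folds are from the log2 values. The 7204 probe sets reaching 200 on at least 5 arrays were fitted in limma 3.58.1 (R 4.3.3) by lmFit and by eBayes with its trend option, for 4 groups and 16 residual degrees of freedom, with 5 contrasts and Benjamini-Hochberg adjustment within each at 5%. The number of arrays limits the precision.

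The fatty acid genes, the other lists and the tests were chosen with earlier results of these data known. Platform annotation gave 1 symbol for 10298 probe sets, several for 363 and none for 1993; the design is early, and a named probe set may not measure its gene. Values on every array are given for up to 4 genes per step that passed in an mdx contrast or were brightest, and of other lists up to 4 genes with the smallest adjusted p in leg muscle. Marker lists, over all genes measured and with no filter, were compared by two-sided exact permutation over arrays. Promoters were searched for exact letters, or up to 2 mismatches where stated, in a RefSeq table on GRCm38.p6. Alternatives were the deposited scale, quantile normalization, other floors (20, 100), an added 50, no filter and a filter at 500, no trend, array weights, a replicate block, the mean of a gene's probe sets, only the groups compared, and leaving out arrays.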

Additional observations from a re-analysis of the deposited data

Results flagged for a closer look

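Outlying arrays were sought on log2 signals in 100 sets of 5 arrays, 1 for each tested gene and group. In 7 sets an array's gap to the nearest other exceeded 0.71 of the range on that scale. Chance marks about 1 in 20 such sets, which is 5 here. On leg control 1, Lpl was at 7258 against 2965 to 3706 on the other controls, Echs1 at 1670 against 1020 to 1114, and Eci1 at 6526 against 4158 to 4404. On leg mdx 5, Slc25a20 was at 1076 against 1670 to 1929, Eci1 at 2329 against 2808 to 2967, and Etfdh at 740 against 1273 to 1529. On extraocular control 5, Etfa was at 4439 against 3036 to 3372.

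The mdx effect differed between leg and extraocular muscle, by limma's test of the difference itself, for 5 genes. The effect in leg minus that in extraocular muscle was 2.35 on the log2 scale for Cpt1a, -0.79 for Crat, -0.74 for Ech1, -0.73 for Hadh and -0.62 for Eci1.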

How the results depend on the processing

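In mdx against control leg muscle, 16 of the 25 genes fell, and 11 to 16 did in 13 other settings. The count was 11 with only the leg arrays in the fit and 12 without both leg control 1 and leg control 4. Leaving out 1 array at a time gave 12 to 18. The calls of Slc27a1, Cpt1a, Slc25a20, Crat, Hadh, Ech1, Eci1, Etfa and Etfb, 9 of 17, held in all 33 alternative fits; 8 were lost in at least 1. Extraocular muscle had 0 calls between mdx and control mice in all 33. The mdx effects differed downward for 4 genes, for 2 without the intensity trend, and for 2 to 5 when 1 array was left out, 2 without leg mdx 5, extraocular mdx 2 or extraocular mdx 3. In control mice 8 genes were higher in extraocular than in leg muscle, 7 to 9 in 13 other settings and 6 to 9 without 1 array. In the same comparison 1 gene was lower, and 1 to 2 without 1 array, 2 without leg control 4. In mdx mice 16 to 18 genes were higher in extraocular muscle over the alternatives, against 17. No called difference changed sign in these alternatives.

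Nothing in the labels says that a replicate number marks a shared animal or batch. Deviations of arrays with the same number correlated at 0.012 to 0.18 in the leg groups, where 3 of 5 pairs were over 0.1 and best with their own number, and at 0.019 to 0.228 in the extraocular groups, where 1 of 5 was over 0.1. This is a hint from the data, not from the design. With the replicate number as a block, 16 genes fell and 1 rose in mdx leg muscle, 0 passed in extraocular muscle, the mdx effects differed downward for 4, and in control extraocular against leg muscle 9 genes were higher and 2 lower, with Hadh (adjusted p = 0.0411) and Pdk4 (0.0327) gained. Acadvl and Decr1 reached a signal of 200 on 0 of the 20 arrays, so no difference in them was tested.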
